A study of Mus musculus with 2 samples.

Results

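Keratins of the inner root sheath (IRS) and of the hair shaft, together with trichohyalin, were followed through single cells of murine back skin and of the preputial gland (PG). The genes were chosen by symbol: *Krt25*, *Krt27*, *Krt28*, *Krt71*, *Krt72*, *Krt73*, *Krt35* and *Tchh* were found, which are 8 of 9 symbols listed for the set and 8 of 32285 genes in the tables, and *Krt85* is not analysed here. Both tissues came from male wild type C57BL/6 mice aged 52 weeks, and tissue of 3 mice was pooled into 1 library for back skin and 1 library for PG; no treatment or further allele is given for either. With 1 library per tissue there was no test between tissues, and a difference between tissues and a difference between libraries cannot be told apart. Cells were barcodes with at least 500 genes, at least 1000 unique molecular identifiers (UMIs) and at most 10% mitochondrial UMIs.

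These limits left 8899 skin cells with 27407186 UMIs and 4699 PG cells with 15270076 UMIs, at medians of 2386 and 2729 UMIs per cell. The libraries shared 0 cell barcodes. The deposited barcode lists differed, with 6794880 entries for skin and 737280 for PG and 77142 entries in both, although the labels give 1 chemistry (v3.1) for both libraries, so the absence of shared cell barcodes may follow from the lists; whether the chemistries differed, and any part of that in the ratios of skin to PG, was not tested. Values are UMIs per 1000000 UMIs over summed cells (CPM), and since each molecule is tagged once near its 3′ end they were not divided by gene length. Intervals are 95% intervals, exact except for those of positions along the hair lineage. They cover counting error only and say nothing of the spread between mice.

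Keratins build filaments in pairs, each of a type I and a type II chain. In the growing hair follicle (HF), cycling matrix cells at the base give rise to the shaft and to the IRS, the rigid sleeve that moulds the shaft and breaks down higher up. *Krt25*, *Krt27* and *Krt28* encode type I and *Krt71*, *Krt72* and *Krt73* type II keratins of the IRS, of which *Krt72* and *Krt73* are best known from its cuticle; *Krt35* encodes a type I keratin of the early shaft, and trichohyalin (*Tchh*) is a granule protein of the IRS and of the shaft medulla that is cross-linked to the keratin filaments. The PG is a modified sebaceous gland.

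In the mouse annotation (GENCODE vM21, build GRCm38) the type I IRS genes lay close together at chr11:99315516-99374903 and the type II genes at chr15:101733949-101802346, each group on the minus strand and spanning 59.4 kb and 68.4 kb. *Krt35* lay at chr11:100092193-100096241 on the minus strand. *Tchh* lay alone at chr3:93442330-93449077 on the plus strand, where 1 gene model overlaps it on the opposite strand. The 250 bases before the start were read from RefSeq (GRCm38.p6) for 7 of the 8 genes, all but *Krt35*. The sequences of 5 IRS genes are shown because their levels rose along the IRS branch of the hair lineage and because they share a 6-base GATA-type word. Capitals mark AGATAA and, near the start, the TATA box-type word TATAAA, and each run is written 5′ to 3′ on the gene's own strand.

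*Krt25* (chr11:99322952-99323201, minus): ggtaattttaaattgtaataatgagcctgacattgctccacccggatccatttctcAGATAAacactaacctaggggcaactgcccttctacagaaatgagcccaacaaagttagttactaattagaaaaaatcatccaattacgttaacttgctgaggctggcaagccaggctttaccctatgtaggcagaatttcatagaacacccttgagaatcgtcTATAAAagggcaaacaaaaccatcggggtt
*Krt27* (chr11:99351119-99351368, minus): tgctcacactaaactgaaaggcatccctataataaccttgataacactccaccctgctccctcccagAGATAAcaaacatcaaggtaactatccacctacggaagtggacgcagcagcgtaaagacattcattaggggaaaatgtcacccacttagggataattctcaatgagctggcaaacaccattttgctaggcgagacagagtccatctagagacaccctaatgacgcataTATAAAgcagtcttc
*Krt71* (chr15:101743098-101743347, minus): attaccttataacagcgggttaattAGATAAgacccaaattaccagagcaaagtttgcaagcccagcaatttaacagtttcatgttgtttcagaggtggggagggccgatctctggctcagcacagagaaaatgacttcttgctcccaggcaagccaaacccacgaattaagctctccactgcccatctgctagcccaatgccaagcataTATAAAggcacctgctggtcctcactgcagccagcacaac
*Krt73* (chr15:101802361-101802610, minus): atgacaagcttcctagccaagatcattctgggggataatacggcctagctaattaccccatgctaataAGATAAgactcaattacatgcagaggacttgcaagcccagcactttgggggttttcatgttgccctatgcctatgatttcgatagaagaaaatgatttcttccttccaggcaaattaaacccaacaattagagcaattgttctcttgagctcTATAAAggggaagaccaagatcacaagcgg
*Tchh* (chr3:93442080-93442329, plus): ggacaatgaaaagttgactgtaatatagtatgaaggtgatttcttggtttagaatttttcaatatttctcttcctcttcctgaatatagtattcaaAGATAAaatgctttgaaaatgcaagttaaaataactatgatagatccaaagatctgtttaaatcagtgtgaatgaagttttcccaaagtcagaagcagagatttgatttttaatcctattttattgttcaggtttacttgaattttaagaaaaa

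The word AGATAA, or TTATCT on the other strand, was present in 5 of 7 of these windows against 3281 of 32851 RefSeq promoter windows of the same length (9.99%). In all 5 it was on the gene's own strand, between 225 and 149 bases before the start, at 225 to 220 in *Krt71* and at 182 to 177 in *Krt73*. TATAAA, or TTTATA on the other strand, was present in 6 of 7 windows against 12.4% of all windows, in *Krt72* on the opposite strand only and in *Tchh* not at all. Both words were present in 4 of 7 windows against 1.91% of all. The longest run shared by a pair of the windows was 14 bases, ttgcaagcccagca, in *Krt71* and *Krt73*. A match is a description of letters and not of a bound site.

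Each of the genes was higher in the skin library than in the PG library. *Krt71* was the most abundant in skin at 837 CPM (95% interval 826 to 848), followed by *Tchh* at 608 CPM (598 to 617) and *Krt25* at 439 CPM (431 to 447). *Krt35* reached 235 CPM, *Krt28* 196 CPM, *Krt27* 126 CPM and *Krt73* 93.4 CPM, whereas *Krt72* stood at 2.99 CPM (2.38 to 3.71). Neighbours in this order did not overlap in their counting intervals. These sums rested on few cells: the 10 highest cells held 48.6% of the *Krt27*, 42.7% of the *Tchh* and 39.3% of the *Krt71* UMIs, against 12.5% of the *Krt28* and 16.3% of the *Krt35* UMIs. A single cell carried 2362 *Krt71*, 2187 *Tchh*, 1014 *Krt25* and 374 *Krt27* UMIs, together with 53 of *Krt28*.

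In the PG library *Tchh* was at 2.03 CPM (1.38 to 2.88), *Krt27* and *Krt28* were each at 1.24 CPM (0.749 to 1.94), and *Krt25* and *Krt71* had 1 UMI each. *Krt72*, *Krt73* and *Krt35* had 0 UMIs (0 to 0.242 CPM), and the limit of 3 UMIs used in their ratios is 0.196 CPM. The log2 ratio of skin to PG was 6.66 (6.02 to 7.40) for *Krt27*, 7.30 (6.65 to 8.03) for *Krt28* and 8.23 (7.72 to 8.78) for *Tchh*. It was 12.71 (10.23 to 18.02) for *Krt25* and 13.64 (11.16 to 18.95) for *Krt71*, both resting on 1 PG UMI. Against the limit of 3 UMIs, *Krt35* was at least 1195-fold, *Krt73* at least 475-fold and *Krt72* at least 15.2-fold higher in skin. All 8 genes were at least 4-fold and 7 of them at least 50-fold higher in skin, against 8.28% and 1.28% of 13500 genes with at least 50 UMIs in the 2 libraries together. The sum of the 8 genes differed by 9.09 on the log2 scale (8.76 to 9.45), and by 8.58 without the 10 skin cells with the most UMIs of these genes.

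**Figure D1:**
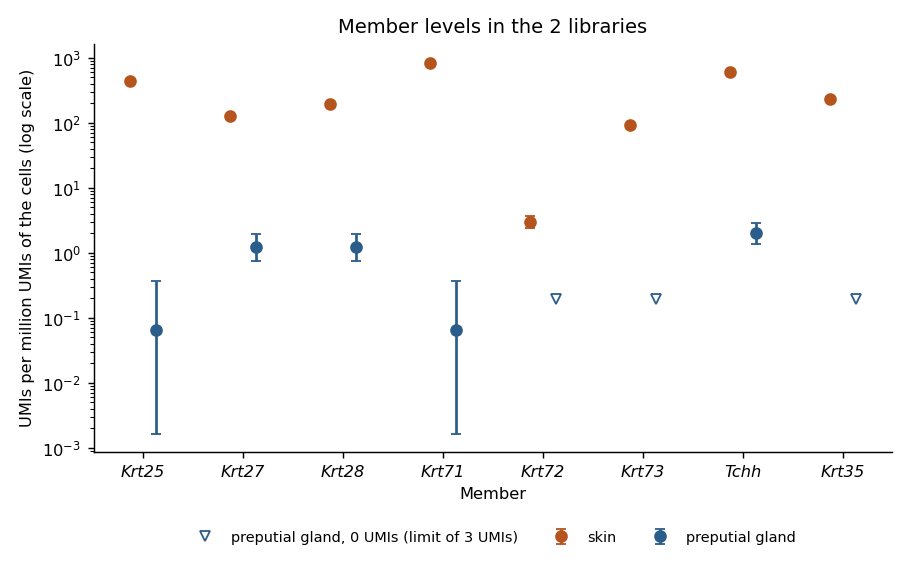
Level of each gene in skin (orange) and PG (blue) cells as CPM on a log axis, with exact Poisson 95% bars and open triangles at the limit of 3 UMIs where 0 were counted. *Krt71* stands highest in skin at 837 CPM, and no gene exceeds 2.03 CPM in PG.

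Within skin, 37 clusters were made without these genes, without the other hair keratins and without the keratin-associated protein genes, and were named from fixed markers other than these 8 genes. Those markers included other shaft keratins and most of the regulators and cross-linking genes described further on. Of these, 5 clusters with 1114 cells (12.5% of skin cells, median 3404 UMIs) formed the hair lineage. A cycling matrix-like cluster (473 cells) carried *Lef1*, *Msx1*, *Msx2* and *Dlx3* with 11 cycling markers. An IRS-like cluster (304 cells) carried *Tgm3*, *Padi3* and *Cux1*, a matrix- and shaft-like cluster (222 cells) carried *Hoxc13*, *Foxn1*, *Krt86* and *S100a3*, and a shaft-like cluster (31 cells) carried 11 shaft markers, *Krt31* and *Krt33a* among them. A cluster of 84 cells led by *Tchhl1*, *Soat1*, *Sct* and *Gpnmb* carried 5 matrix markers and is called the *Sct* cluster.

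The hair lineage held 87.2% of all UMIs of the 8 genes: 84.3% of *Krt25*, 82.5% of *Krt27*, 90.2% of *Krt28*, 85.1% of *Krt71*, 94.6% of *Krt73*, 94.3% of *Krt35*, 88.1% of *Tchh* and all 82 of *Krt72*. *Krt73* was at 522 CPM in hair lineage and 6.06 CPM in other skin cells, a log2 ratio of 6.43 (6.18 to 6.69). *Krt35* was at 1309 against 16.03 CPM (6.35, 6.199 to 6.51). The ratio was smallest for *Krt27*, at 614 against 26.5 CPM (4.54, 4.41 to 4.67). All 8 genes were at least 4-fold and 3 of 8 at least 50-fold higher in the hair lineage, against 3.16% and 0.295% of 12546 genes with at least 50 skin UMIs. The 50-fold count and the order of these ratios depended on 42 cells outside the hair lineage that held at least 20 UMIs of the 8 genes. Without them, a setting added after seeing the data that removes UMIs of these genes by construction, all 8 genes were at least 4-fold and all at least 50-fold higher, against 3.22% and 0.367% of 12524 genes. The smallest ratio was then 80.3-fold for *Krt28* (log2 6.33, 6.16 to 6.50), and *Krt27* was 96.6-fold higher (6.59, 6.35 to 6.85).

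IRS keratins were not spread evenly over the lineage. In the IRS-like cluster the 8 genes made up 3.91% of all UMIs, against 0.791% in the *Sct* cluster, 0.596% in the matrix- and shaft-like, 0.388% in the cycling matrix-like and 0.289% in the shaft-like cluster. *Krt71* was at 14046 CPM in IRS-like and 1782 CPM in cycling matrix-like cells, but at 38.3 CPM in matrix- and shaft-like and 6.38 CPM in *Sct* cells. *Krt25* followed the same order at 7331, 871, 76.5 and 76.5 CPM. *Krt28* was at 2972 CPM in IRS-like and already at 676 CPM in cycling matrix-like cells, the smallest drop among the IRS keratins. *Krt73* was at 1955 CPM in IRS-like and 97.2 CPM in cycling matrix-like cells, and *Krt72* at 67.2 CPM in IRS-like cells with 0 UMIs in the cycling ones.

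Per cell the IRS-like cluster ranged widely. *Krt71* ran from 0 to 2362 UMIs with a median of 11.5, *Krt25* from 0 to 1014 with a median of 7, and *Krt28* from 0 to 103 with a median of 6. *Krt73* had a median of 3 UMIs and a highest value of 68. *Tchh* was found in 124 of the 304 cells, so its median was 0 while its highest cell had 2187 UMIs.

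In the other hair lineage clusters, outside the IRS-like and cycling cells, the few IRS keratin UMIs were mostly of the type I genes. In matrix- and shaft-like cells *Krt27* had 88, *Krt28* 85 and *Krt25* 68 UMIs against 34 of *Krt71*. In the *Sct* cluster *Krt27* had 63, *Krt25* 24 and *Krt28* 20 UMIs against 2 of *Krt71*, and *Krt27* was found in 39, *Krt28* in 17 and *Krt25* in 14 of the 84 cells. In IRS-like cells *Krt71* had 15880 UMIs, more than *Krt25* (8288), *Krt28* (3360) or *Krt27* (2325). *Krt27* made up 12.8% of the *Krt27* and *Krt71* UMIs in IRS-like cells (12.3% to 13.3%), 72.1% (63.3% to 79.9%) in matrix- and shaft-like cells and 96.9% (89.3% to 99.6%) in the *Sct* cluster, and 19.2% (17.9% to 20.6%) in free RNA, taken from barcodes with 1 to 100 UMIs.

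The hair lineage cells were clustered once more on their own, again without the same genes, which gave 12 subclusters. Of these, 4 were made wholly or mainly of IRS-like cells and carried different mixtures of IRS keratins. The largest, led by *Maf* and *Sema6a* (189 cells, also with haemoglobin genes *Hbb-bs* and *Hba-a1* among its leading genes), held *Krt71* at 9616 CPM, *Tchh* at 9593 CPM, *Krt25* at 5251 CPM, *Krt28* at 2603 CPM and *Krt73* at 1654 CPM. A subcluster of 26 cells led by *Crnn* and *Map2* was the richest, with the 8 genes at 14.2% of all UMIs: *Krt71* at 62206 CPM, *Tchh* at 36395 CPM, *Krt25* at 29996 CPM and *Krt27* at 10131 CPM. *Krt73* was at 378 CPM in these 26 cells.

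The subcluster led by *Crym* and *Prr9* (58 cells) was the reverse. It held *Krt28* at 7255 CPM and *Krt73* at 5768 CPM, above *Krt25* at 1998 CPM, *Krt27* at 1362 CPM, *Krt71* at 1147 CPM and *Tchh* at 619 CPM, and *Krt72* was at 426 CPM. With each cell thinned to 1000 UMIs, *Krt73* was found in 100% of these cells and *Krt71* in 50%. A subcluster of 49 cells led by *Tm4sf1*, *Krt75*, *Krt17* and *Krt6a*, which include companion layer and outer root sheath keratins, held *Krt71* at 1974 CPM and *Krt25* at 361 CPM with *Krt73* at 44.6 CPM. A mixed subcluster of 30 cells led by *Dusp1*, *Krt15* and *Krt14*, which include basal keratinocyte keratins, held every gene but *Krt72* at 432 to 1376 CPM.

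**Figure D2:**
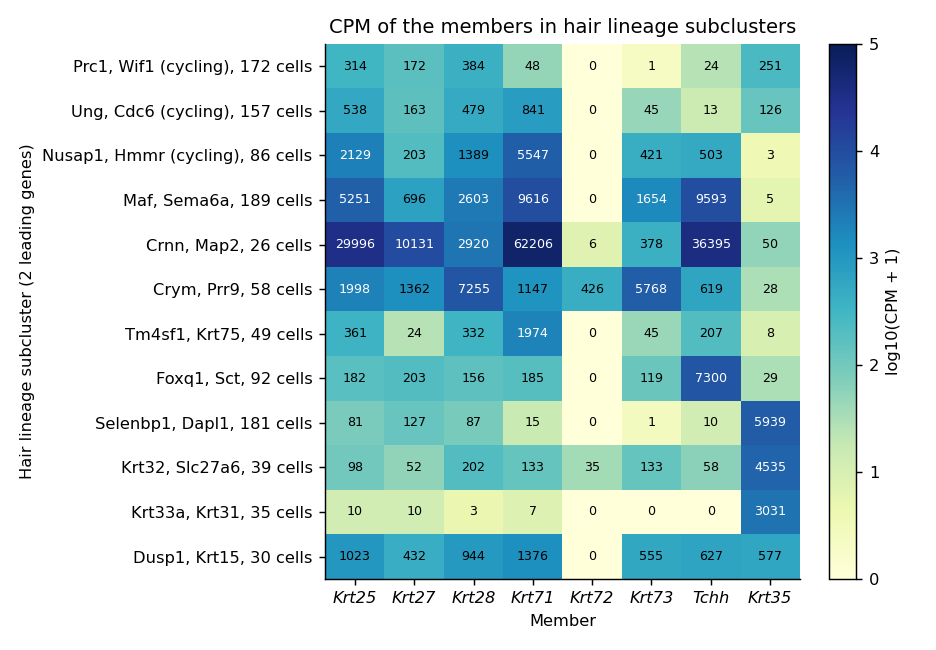
CPM of each gene (columns) in the 12 hair lineage subclusters (lines, named by 2 leading genes with their number of cells), coloured by log10(CPM + 1). *Krt71*, *Tchh*, *Krt25* and *Krt27* peak in the *Crnn* and *Map2* cells, *Krt28*, *Krt73* and *Krt72* in the *Crym* and *Prr9* cells, and *Krt35* in the lower lines.

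Cells with more *Krt73* than *Krt71* and cells with *Krt71* alone were set beside each other; since their *Krt71* and *Krt73* counts chose them, those counts are not a result. Among the 304 IRS-like cells, 52 had at least 10 *Krt73* UMIs and fewer of *Krt71*, and in these *Krt28* was at 6292 CPM (5950 to 6649), *Krt25* at 2554 CPM (2337 to 2784) and *Krt27* at 1035 CPM (899 to 1186). Another 25 cells had at least 50 *Krt71* UMIs and no *Krt73*, and in these *Krt28* was at 2483 CPM (2227 to 2761), *Krt25* at 27136 CPM (26273 to 28020) and *Krt27* at 9179 CPM (8679 to 9699). *Krt28* was thus above *Krt25* in the first set and below it in the second, and *Tchh* was at 5849 CPM in the first and 32125 CPM in the second. This order did not hold over all cells rich in *Krt73*: in all 86 IRS-like cells with at least 10 *Krt73* UMIs, *Krt25* was at 5845 CPM (5614 to 6083), above *Krt28* at 4836 CPM (4626 to 5053). In all 169 with at least 10 *Krt71* UMIs, *Krt25* was at 10933 CPM and *Krt28* at 2760 CPM.

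In the hair lineage without thinning, 203 of 241 *Krt73* cells (84.2%) also held *Krt71*. In the other direction, 203 of 451 *Krt71* cells (45.0%) held *Krt73*. Of the 169 IRS-like cells with at least 10 *Krt71* UMIs, 67 held no *Krt73*, and 33 cells had at least 50 *Krt71* UMIs and at least 1 of *Krt73*, and in these *Krt71* stood at 23081 CPM and *Krt73* at 1586 CPM. Over the 304 IRS-like cells, Pearson's r of log2(UMIs per 10000 + 1) was 0.65 for *Krt25* and *Krt71*, 0.55 for *Krt28* and *Krt73*, 0.02 for *Krt28* and *Krt71* and -0.29 for *Krt71* and *Krt73*. Over all 1114 hair lineage cells it was 0.37 for *Krt71* and *Krt73*. These cells share 1 library and differ in depth, so the values describe this library alone.

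**Figure D3:**
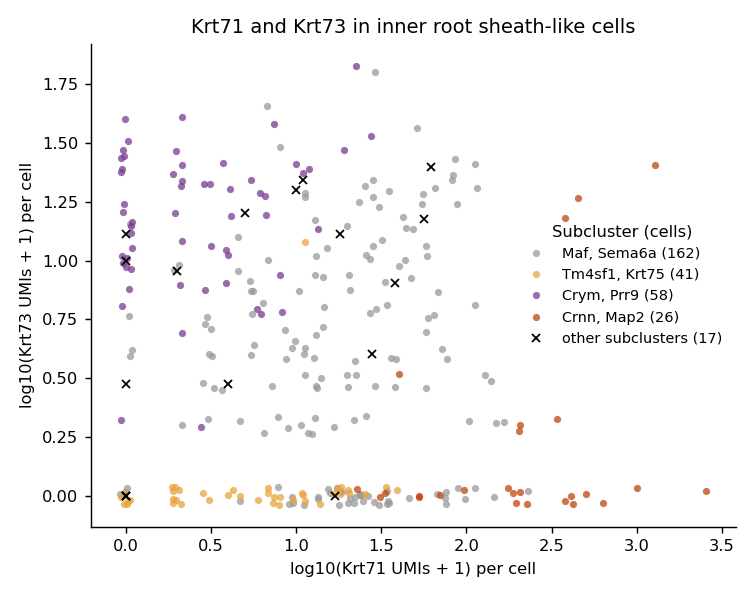
*Krt71* against *Krt73* UMIs, as log10(UMIs + 1), in each of 304 IRS-like cells, slightly jittered and coloured by subcluster. Cells of the *Crym* and *Prr9* subcluster lie high on *Krt73* and low on *Krt71*, while most *Crnn* and *Map2* cells lie far right at 0 *Krt73*.

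Type I and type II IRS keratin molecules were present in similar numbers in cells that held many. In 310 hair lineage cells with at least 20 IRS keratin UMIs, type I made up a median of 44.3% (quartiles 35.1% and 54.4%), and 5 cells were under 10% and 4 cells at 90% or more. The median was 46.3% in 224 IRS-like and 38.3% in 84 cycling matrix-like cells. Summed over all cells of a cycling subcluster, type I made up 94.7% (92.9% to 96.2%) in the 172 cycling cells led by *Prc1* and *Wif1*, where *Krt28* was at 384 CPM, *Krt25* at 314 CPM, *Krt27* at 172 CPM and *Krt71* at 47.6 CPM. It made up 57.1% (54.3% to 59.9%) in 157 cycling cells led by *Ung* and *Cdc6*, and 38.4% (36.8% to 40.0%), close to the cycling matrix-like median, in 86 cycling cells led by *Nusap1* and *Hmmr*, where *Krt71* was at 5547 CPM.

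*Krt72* was the rarest of the genes, with 82 UMIs in 11 cells. Each of the 11 cells also held *Krt73*, at 4 to 36 UMIs, and *Krt28*, at 7 to 78 UMIs, and 10 of them were IRS-like. The cell with the most *Krt72*, at 27 UMIs of 1328, had 18 of *Krt27*, 10 of *Krt28*, 8 of *Krt73* and 0 of *Krt71*. *Krt71* was at 0 in 7 of the 11 cells. The cell outside the IRS-like cluster was matrix- and shaft-like and held 27 UMIs of *Krt35* with 6 of *Krt72*. The keratin genes of each cluster are related in sequence, and reads that could not be assigned to 1 of them would be missing from all, so their levels are uncertain to that extent.

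Co-detection was counted for the 28 pairs of the 8 genes, with each cell thinned to 1000 UMIs. In the hair lineage 302 cells held both *Krt25* and *Krt71*, which were 67.3% of the *Krt25* and 78.9% of the *Krt71* cells. *Krt28* was found in 164 of 189 *Krt73* cells (86.8%), and *Krt71* in 137 of them (72.5%). All 8 thinned *Krt72* cells held *Krt73* and *Krt28*, and 2 held *Krt71*. *Tchh* shared 108 of its 153 cells with *Krt25*. An IRS-like cell most often held 4 of the genes (87 cells) or 5 (79 cells), and 1 held 7.

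*Krt35* was mostly found apart from each single IRS gene. Of 253 *Krt35* cells in the hair lineage, 33 held *Krt27*, 27 *Krt28*, 20 *Krt25*, 10 *Krt71*, 6 *Tchh* and 5 *Krt73*. At least 1 IRS gene was found in 27.3% of the 253 cells, and in 57.6% of 309 *Krt35* cells without thinning. Among cycling matrix-like *Krt35* cells the shares were 54.8% of 31 thinned cells and 91.4% of 58 without thinning. Among all 473 cycling matrix-like cells, with or without *Krt35*, they were 70.4% and 90.9%. Of 222 matrix- and shaft-like cells, 163 held 1 of the genes only. The share of cells with either gene that held both was 41.2% (37.9% to 44.7%) for *Krt25* and *Krt71* over all skin cells, and 2.59% (1.67% to 3.83%) for *Krt25* and *Krt35*. Over the 1114 hair lineage cells, r of *Krt35* with each of the other genes was between -0.43 and -0.03.

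**Figure D4:**
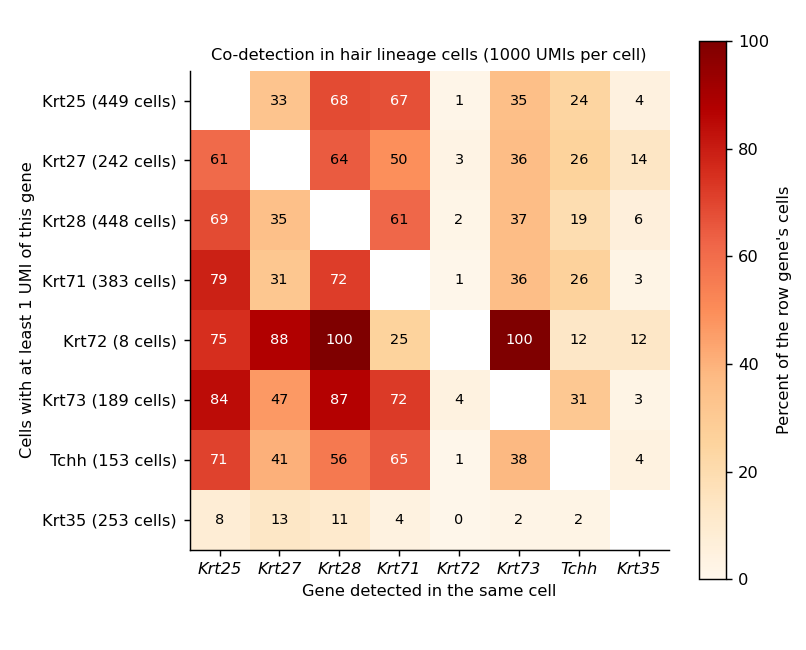
Share of the cells with each gene (lines, cells in parentheses) in which another gene (columns) was also detected, in hair lineage cells thinned to 1000 UMIs. The squares of *Krt25*, *Krt28* and *Krt71* with each other are dark. The *Krt73* line is dark for these genes, with 86.8% of *Krt73* cells holding *Krt28*. The *Krt73* column is paler, with 36.6% of *Krt28* cells holding *Krt73*. The *Krt72* line, on 8 cells, reaches 100% for *Krt28* and *Krt73*, while the *Krt35* line and column are pale.

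Over all skin cells, an IRS gene was detected in 15.7% of thinned cells (14.9% to 16.4%) and in 25.3% without thinning, *Krt35* in 3.73% (3.35% to 4.15%) and 5.27%, and both kinds in 0.865% (0.683% to 1.08%) and 2.39%. In fibroblast-like cells, which should lack these genes, the thinned shares were 7.29%, 0.820% and 0.0912% at a median of 1882 UMIs. Skin cells outside the hair lineage were close to this background at 8.48%, 1.01% and 0.103% and a median of 2303 UMIs, while the hair lineage was at 66.0%, 22.7% and 6.19% and a median of 3404 UMIs. Without thinning, 84 cells held both at 2 or more UMIs of each kind, which were 28.2% of 298 *Krt35* cells. At 10 or more UMIs of each kind, 5 cells held both, which were 2.84% of 176 *Krt35* and 1.03% of 487 IRS cells. These 5 cells had a median of 6141 UMIs, against 4774 for cells with *Krt35* only, and 1 of them was among the highest doublet scores. Whether they hold both kinds or are doublets was not tested.

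Along the hair lineage, cells were ordered from the most cycling cells by diffusion pseudotime without the 8 genes, other hair keratins and keratin-associated protein genes, and positions run from 0 to 100 by rank. The IRS branch joined 473 cycling matrix-like and 304 IRS-like cells. Each branch was cut into 10 bins of equal cell number. In bin 1 of the IRS branch *Krt28* was at 388 CPM, *Krt25* at 383 CPM and *Krt27* at 173 CPM, while *Krt71* was at 53.1 CPM, *Tchh* at 11.5 CPM and *Krt73* at 0. *Krt71* rose to 4609 CPM in bin 5, where cycling markers were at 6465 CPM, and to 21510 CPM in bin 10, where they were at 175 CPM. Cycling markers did not fall steadily along the axis, at 7915 CPM in bin 1 and 4547 CPM in bin 4, below bin 5. *Tchh* was at 189 CPM in bin 5, 3098 CPM in bin 7 and 10442 CPM in bin 8. As a share of its own highest bin it first passed 10% in bin 7, after *Krt71* and *Krt25* (bin 5). It first passed 50% in bin 8, and *Krt71* and *Krt25* did so in bin 9. *Krt71* was however already at 49.97% in bin 7 and *Krt25* at 49.87% in bin 8. No order at 50% is read from these near ties. *Krt73* and *Krt28* reached their highest levels in bin 9, at 2758 and 3809 CPM, and were lower in bin 10, whereas *Krt25* and *Krt27* were highest in bin 10 at 11321 and 4299 CPM. *Krt72* was at 205 CPM in bin 10 and at or below 3.95 CPM in every earlier bin.

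The position at which a gene had accumulated 50% of its UMIs was 75.8 for *Krt28*, 82.6 for *Krt73*, 84.9 for *Krt71*, 85.4 for *Krt25*, 87.6 for *Tchh*, 91.8 for *Krt27* and 98.1 for *Krt72*. *Krt71* and *Krt25* were not separated, with approximate intervals of 84.0 to 85.3 and 84.9 to 86.3. These treat the UMIs of a cell as independent and are therefore too narrow. Without the 10 cells with the most UMIs of these genes, *Krt71* moved to 74.0 and came first, ahead of *Krt28* at 75.2, *Krt25* at 76.6, *Krt27* at 79.1, *Tchh* at 82.6 and *Krt73* at 83.4. *Krt73* went from second to sixth in the order and *Krt28* from first to second, so the order of the genes rested on 10 cells, apart from *Krt72*, which stayed last at 98.0. Counted by thinned cells with the gene rather than by UMIs, *Krt28* came first (64.4) and *Krt73* (79.6) and *Tchh* (80.3) last, with no value for *Krt72*.

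**Figure D5:**
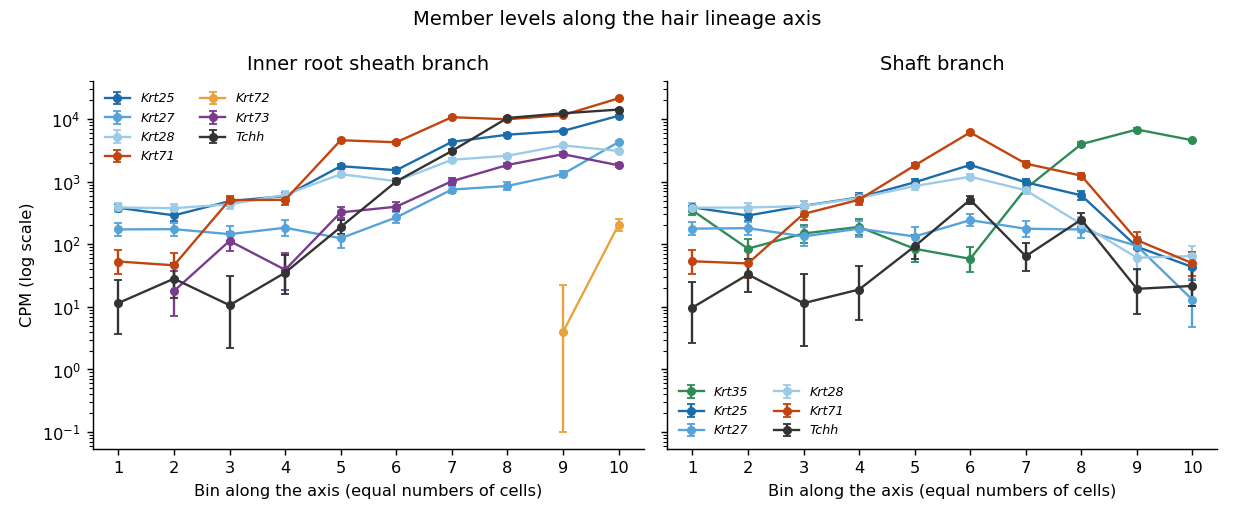
CPM on a log axis, with exact Poisson 95% bars, in 10 bins of equal cell number along the IRS branch (left) and the shaft branch (right), with bins at 0 left out. On the left *Krt71* climbs from 53.1 to 21510 CPM and *Tchh* from 11.5 to 14215 CPM; on the right *Krt35* climbs to 6836 CPM in bin 9 as the IRS genes fall.

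*Krt35*, the shaft keratin, took the other branch. It was at 5607 CPM in matrix- and shaft-like cells, where 212 of 222 cells held it at 0 to 127 UMIs with a median of 15.5, and at 2857 CPM in shaft-like cells, where 21 of 31 held it. In IRS-like cells it was at 27.4 CPM. Among subclusters it was at 5939 CPM in 181 cells led by *Selenbp1* and *Dapl1*, 4535 CPM in 39 cells led by *Krt32* and *Slc27a6*, and 3031 CPM in 35 cells led by *Krt33a* and *Krt31*. Its CPM was thus lower where the later shaft keratins were high. Its median per cell was not lower, at 14, 16 and 20 UMIs in the same order. These cells had median totals of 3096, 4664 and 7791 UMIs. *Krt35* was also present in cycling cells, at 251 CPM in those led by *Prc1* and *Wif1* and at 126 CPM in those led by *Ung* and *Cdc6*, but at 2.57 CPM in those led by *Nusap1* and *Hmmr*. Along the shaft branch (726 cells) it was at 349 CPM in bin 1, 779 CPM in bin 7 and 6836 CPM in bin 9, with 50% of its UMIs reached at position 86.9. *Krt71* reached 6152 CPM in bin 6 of this branch, since the branch includes all cycling matrix-like cells.

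*Tchh* was high in the *Sct* cluster, where the type II IRS keratins were near 0. It was at 7520 CPM (5796 CPM without its highest cell) and made up 95.1% of the UMIs of the 8 genes, with *Krt71* at 2 and *Krt73* at 1 UMI, while *Krt27* was at 201 CPM, *Krt25* at 76.5 CPM and *Krt28* at 63.8 CPM. The subcluster led by *Foxq1* and *Sct* had 92 cells, 79 of them in this cluster. There *Krt71* was at 185 CPM, with 55 of its 64 UMIs in 1 cell, and *Krt73* at 119 CPM. Of the 84 cells of the *Sct* cluster 41 held *Tchh*, from 0 to 559 UMIs. Along a branch from the cycling cells to the *Sct* cluster it stayed at or below 519 CPM in bins 1 to 9 and reached 11089 CPM in bin 10. The same cells carried *Tchhl1*, a trichohyalin-like gene, at 434 CPM, with 0 UMIs in each of the other 4 hair lineage clusters. *Padi3* and *Tgm3*, which encode enzymes that modify and cross-link trichohyalin, were at 261 and 172 CPM against 119 and 41.6 CPM in IRS-like cells. *Tgm3* was also at 261 CPM in shaft-like cells, where *Tchh* had 0 UMIs. Both enzyme genes were among the fixed markers that named clusters.

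The 42 cells outside the hair lineage with at least 20 UMIs of the 8 genes held 6560 of the 8909 UMIs there. Of the 42 cells, 14 were among the highest doublet scores, against 634 of all 8899 skin cells. One fibroblast-like cell alone held 3056 of its 8316 UMIs in these genes, with *Krt71* at 1399, *Tchh* at 781, *Krt25* at 580 and *Krt27* at 296. Another 19 of the 42 cells were in an unnamed cluster of 70 cells led by *Stc1*, histone genes and *Mex3a*. Of these 19 cells, 1 was among the highest doublet scores. In this cluster *Krt71* was at 2754 CPM and *Krt25* at 2067 CPM, or at 1416 and 1419 CPM without its highest cell. Without the 42 cells, *Krt71* in other skin cells went from 150 to 19.1 CPM, *Krt25* from 83.0 to 20.4 CPM, *Tchh* from 86.7 to 30.6 CPM, *Krt27* from 26.5 to 6.36 CPM and *Krt35* from 16.03 to 12.4 CPM. Whether the 42 cells are doublets or hair lineage cells in other clusters was not tested.

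The low UMIs that remained were compared with free RNA. In basal and suprabasal keratinocyte-like cells *Tchh* made up 42.9% (38.2% to 47.6%) of the UMIs of the 8 genes and in outer root sheath and companion-like cells 34.6% (29.2% to 40.2%), against 20.8% (20.1% to 21.6%) in free RNA. In fibroblast-like cells *Krt35* made up 13.04% and *Krt25* 18.2%, against 13.1% and 19.8% in free RNA. Other genes differed there. *Krt71* made up 35.2% (29.3% to 41.4%) against 24.6%, *Tchh* 11.9% (8.15% to 16.5%) against 20.8%, and *Krt73* 1.19% (0.245% to 3.43%) against 3.92%. In 48 sebocyte-like skin cells *Krt27* made up 7 of 17 UMIs (41.2%, 18.4% to 67.1%), or 34.5 CPM, against 5.87% in free RNA, and *Krt71* 1 of 17.

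In the PG, traces were limited to single molecules. The 71 UMIs lay in 70 of 4699 cells (1.49%, 1.16% to 1.88%), no cell held 2 of the genes, and 1 cell held 2 UMIs, both of *Krt27*. Cells with a UMI had a median of 4218.5 UMIs against 2720 for the rest. Fibroblast-like PG cells, 695 in number, held 2 UMIs. The mixture was unlike that of all skin cells, whose UMIs of these genes lay mostly in the hair lineage. *Tchh* made up 43.7% of the UMIs against 24.0% in skin cells, *Krt27* 26.8% against 4.97% and *Krt28* 26.8% against 7.71%. *Krt71* made up 1.41% against 32.995% and *Krt25* 1.41% against 17.3%. At the proportions of all skin cells, 71 UMIs would hold 23.4 of *Krt71* and 12.3 of *Krt25*, where 1 of each was counted. Skin cells outside the hair lineage, without those with at least 20 UMIs of these genes, varied in this mixture. In 48 sebocyte-like cells *Krt27* made up 7, *Krt28* 5, *Tchh* 3 and *Krt71* 1 of 17 UMIs. *Tchh* made up 42.9% and *Krt71* 15.3% in basal and suprabasal keratinocyte-like cells, and 11.9% and 35.2% in fibroblast-like cells. What the PG mixture shares with these was not tested. Free RNA of the PG library held 7 *Tchh*, 2 *Krt28* and 1 *Krt27* UMIs, so the genes together were at 3.88 CPM there and at 4.65 CPM in cells.

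The UMIs in PG lay in several clusters. Of 31 *Tchh* UMIs, 10 lay in an unnamed cluster of 275 cells led by *Cst6*, *Spink5* and *Krtdap*, which are epithelial differentiation genes, at 7.33 CPM (3.52 to 13.5). Of 19 *Krt27* UMIs, 6 lay in 267 outer root sheath and companion-like cells at 7.76 CPM (2.85 to 16.9). Of 19 *Krt28* UMIs, 5 lay in 297 sebocyte-like cells at 2.52 CPM (0.817 to 5.87) and 5 in 238 cells led by *Spink8* and *Cidea* at 4.01 CPM (1.301 to 9.35). At 10 or fewer UMIs per cluster the counting intervals are wide, and those given here overlap. Some others did not. In 1083 cells led by *Nrg2* and *Dlk2*, *Krt27* was at 0.340 CPM (0.00862 to 1.90) and *Krt28* at 0 (0 to 1.26). A difference between genes in where they lay was not tested, and a share of these UMIs from free RNA was not tested.

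Other genes of the hair were counted from lists by role. Many of them, among them *Krt31*, *Krt33a*, *Krt83*, *Krt86*, *S100a3*, *Tgm3*, *Padi3*, *Lef1*, *Hoxc13*, *Dlx3*, *Cux1*, *Foxn1*, *Msx1* and *Msx2*, were also markers that named the clusters of the hair lineage, so their counts and levels follow in part from the naming and nothing is read from them. The share of all 12546 genes at least 4-fold higher was 3.16%. Of 8 shaft type I keratins, 5 had at least 50 skin UMIs and 4 of these were at least 4-fold higher in the hair lineage than in other skin cells, and of 6 type II keratins the corresponding counts were 4 and 4. The median log2 ratio was 6.98 for the 5 and 6.70 for the 4 genes, against 0.15 over the 12546 genes. *Krt33a* (3133 UMIs), *Krt31* (2808 UMIs) and *Krt83* (1872 UMIs) were at 10340, 9219 and 6126 CPM in shaft-like cells and at or below 2.47 CPM in cycling matrix-like cells, where *Krt35* was at 122 CPM. *Krt32*, a shaft cuticle keratin, was the exception, with 8.15% of its 712 UMIs in the hair lineage and a log2 ratio of -1.20. Another 32.3% lay in a cluster of 1189 basal and suprabasal keratinocyte-like cells at 77.9 CPM. That ratio is over the lineage as a whole, where *Krt32* was uneven. It was at 57.4 CPM in matrix- and shaft-like cells and at or below 7.16 CPM in each other hair lineage cluster. In the subcluster led by *Krt32* and *Slc27a6*, which is named for it, it was at 283 CPM. *Krt75*, the companion layer keratin, was at 713 CPM in IRS-like and 682 CPM in *Sct* cells. Among the subclusters made wholly or mainly of IRS-like cells it was at 3263 CPM in that led by *Tm4sf1* and *Krt75* and 6.62 CPM in that led by *Maf*. It was at 0 in those led by *Crym* and by *Crnn*. *Krt26*, another IRS type I keratin, had 29 UMIs.

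Of 57 keratin-associated protein genes, which encode the matrix of the shaft, 22 were detected in skin cells and 4 of the 6 with at least 50 UMIs were at least 4-fold higher in the hair lineage (3.16% of all genes). They summed to 13927 UMIs in skin and 2 in PG. *Krtap8-1* led with 10062 UMIs and was at 31210 CPM in shaft-like cells. A list of 9 cross-linking and matrix-modifying genes held genes of enzymes and also *S100a3*, *Tchhl1*, *Dsg4* and *Cdsn*, which encode no such enzyme. Of the 9 genes, 8 had at least 50 UMIs and 6 were at least 4-fold higher (3.16% of all genes). *S100a3*, *Padi3*, *Tgm3* and *Dsg4* were among the naming markers. *S100a3*, a substrate of such enzymes, was at 4409 CPM in matrix- and shaft-like and 16742 CPM in shaft-like cells against 106 CPM in IRS-like cells, and *Padi3* was at 119 CPM in IRS-like cells. *Cdsn* (corneodesmosin) was lower in the hair lineage, at 1.72 against 42.8 CPM.

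Of 10 regulators, 8 were at least 4-fold higher in the hair lineage (3.16% of all genes); all were matrix or IRS markers in the naming of clusters, and their levels are given as a description. *Lef1*, a Wnt effector, was at 584 CPM in matrix- and shaft-like and 99.1 CPM in IRS-like cells, and *Hoxc13*, a factor for hair keratin genes, at 552 and 12.4 CPM. *Dlx3* went the other way at 86.6 and 240 CPM, as did *Cux1* at 302 and 748 CPM. *Gata3*, a factor of IRS formation, was at 21.4 CPM in matrix- and shaft-like and 400 CPM in IRS-like cells, although over the lineage it was below other skin cells at 167 against 244 CPM. *Foxn1* was at 31.5 and 23.9 CPM and 140 CPM in shaft-like cells, *Msx1* at 33.8 and 24.8 CPM, *Msx2* at 138 and 97.3 CPM, *Shh* at 7.96 CPM in IRS-like and 49.8 CPM in cycling matrix-like cells, and *Ovol1*, at 50.6 and 51.3 CPM, was the other regulator under 4-fold.

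The genes whose levels over the 37 skin clusters were most like the summed IRS genes, by Pearson's r of log2(CPM + 10) among 10882 candidates, were *Crnn* (0.75), *Dlx4* (0.74), *Dlx1* (0.73), *Cxxc4* (0.71) and *Anp32e* (0.67). *Crnn* was at 86.7 CPM in IRS-like and 0 in matrix- and shaft-like cells. Among the 5 genes most like *Krt35* were *Selenbp1* (0.91), *Dclk3* (0.83), *Cybrd1* (0.80) and *Tagln3* (0.78). *Selenbp1* was at 591 CPM in matrix- and shaft-like and 1.77 CPM in IRS-like cells.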

How the data were processed

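The authors deposited raw UMI counts per gene and barcode for each library (Chromium 3′ chemistry, v3.1 for both per the labels, although the barcode lists differ), made with Cell Ranger on build mm10 per the submitters' processing notes; further settings are not given in the sources used here. All barcodes were deposited, so cells were selected by the limits named in the text. No upper UMI limit was set and doublets were kept; removing the highest scores on simulated doublets was an alternative. Counts were summed and divided by all UMIs (CPM), with exact Poisson intervals for levels, exact binomial (Clopper-Pearson) intervals for shares and ratios, and a limit of 3 UMIs for a count of 0. Detection was counted after thinning each cell to 1000 UMIs. Leiden clusters (resolution 1, 30 principal components, 15 neighbours, 2000 variable genes) and diffusion pseudotime left out the 8 genes, other hair keratins, keratin-associated protein genes and *Tchhl1*. Cluster names needed at least 3 fixed markers at 3-fold or more in at least 10% of cells. The genes and lists were chosen with earlier results of these data known. Named genes were all members found, every regulator, up to 4 genes leading each other list, and the 5 most like genes, except 1 for *Krt35* that is not reported here; *Cdsn*, *Krt26*, *Tchhl1* and leading genes of clusters were named after their values were seen. *Krt85* and Krt74 are not analysed here, so *Krt35* stood alone for the shaft and 28 pairs remained. The scripts were tested on simulated counts (Python 3.11.15, scipy 1.17.1, leidenalg 0.10.2), and 30 alternatives were planned.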

Additional observations from a re-analysis of the deposited data

How the results depend on the processing

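With 1 library per tissue no value has a replicate check. No paired analysis was possible because each tissue has 1 library and the labels give no replicate numbers. Depth limits the PG values to 3 UMIs (0.196 CPM) and the skin shares to the thinned depth of 1000 UMIs per cell, and a few cells with very many UMIs carry much of *Krt71*, *Krt25*, *Krt27* and *Tchh*. The log2 ratio of skin to PG kept its direction under each of the 10 alternatives tried for it; values that left their counting interval follow.

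The log2 ratio of skin to PG for the 8 genes together, 9.09, moved to 8.56 with the mean of the CPM of single cells and to 8.39 with free RNA subtracted at the fraction seen in fibroblast-like cells. In skin that fraction was 81.4% with, and 5.77% without, 6 fibroblast-like cells that held at least 20 UMIs of the genes, and the ratio was then 9.66. In PG the fraction was 42.4% in both settings, from 2 UMIs in fibroblast-like cells and 10 in free RNA. The ratio was 8.58 without the 10 highest skin cells. The last 2 settings, like the others marked as added here, were chosen after seeing the data.

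The share of thinned skin cells with an IRS gene, 15.7%, was 16.7% with limits of 1000 genes and 2000 UMIs, 10.7% with 200 genes and 500 UMIs, 13.9% with at most 5% mitochondrial UMIs, 25.3% without thinning and 7.48% at 2 or more UMIs. For *Krt35*, at 3.73%, the values in the same order were 4.68%, 2.72%, 3.19%, 5.27% and 2.47%. For both kinds, at 0.865%, they were 0.335% with 200 genes and 500 UMIs, 0.613% with at most 5% mitochondrial UMIs, 2.39% without thinning and 0.180% at 2 or more UMIs. The setting of 200 genes and 500 UMIs admits cells that cannot be thinned to 1000 UMIs. Its values therefore also differ in depth from the main ones. The cells with both *Krt25* and *Krt71*, 41.2% of those with either, were 56.6% at 2 or more UMIs and 35.9% without thinning; for *Krt25* and *Krt35*, at 2.59%, they were 0.540% and 7.13%.

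The hair lineage held 90.8% of the UMIs at resolution 0.5 and 96.3% without the 42 cells outside it (added), against 87.2%. The position of the summed IRS genes in the whole lineage, 77.4, was 84.1 on the first principal component, 75.9 with 30 neighbours, 48.4 by thinned cells, 82.5 without the highest doublet scores, 73.4 with the unnamed cluster led by *Stc1* and *Mex3a* (added) and 69.4 without the 10 highest cells (added). The cause of these shifts was not tested. Of the 5 genes most like the summed IRS genes, 5 and 4 were also among the 5 with pseudocounts of 1 and 50, and of the 5 most like *Krt35*, 3 and 3. The count of PG cells with a UMI, 70, ran from 56 to 74, and the other alternatives for these values stayed within their intervals.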
